A study of Mus musculus with 12 samples.

Results

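The Polycomb group genes described here are Ezh1, Ezh2, Eed, Suz12, Bmi1, Ring1, Rnf2, Cbx2, Cbx7 and Cbx8, and every array probe that the array files name for any of these 10 genes was taken. That gave 10 of 22410 named genes and 16 of 41174 probes. Ezh1, Ezh2, Eed and Cbx7 had 1 probe each and the other 6 genes had 2 each. All 16 passed the filter on dim probes, and 15 were well above background in both RNAs on all 12 arrays. The exception was the Cbx2 probe A_51_P300245, which was well above background on 8 arrays for KO RNA and on 9 for WT RNA. No Polycomb probe was saturated.

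RNA of lung tumours knocked out for Dnmt3a (KO), a DNA methyltransferase that adds methyl groups to unmethylated CG sites, was hybridised together with RNA of lung tumours wild type at Dnmt3a (WT) on each of 12 two-colour arrays. Both genotypes carried the K-ras LSL-G12D allele on a C57/129 background, and both had received Cre recombinase by adenovirus through the airway, so the mutant K-ras was shared by KO and WT. Only airway-delivered Cre recombined the alleles, so cells it did not reach, such as vessel and blood cells, can keep an intact Dnmt3a gene in a KO tumour. The KO RNA was labelled with Cy5 on 6 arrays and with Cy3 on 6. By the ages and sexes in the labels the arrays fall into 4 combinations, here pairs A to D. Pair A (replicates 1 to 4) set a male KO animal of age 47.7 against a male WT animal of age 42.6. Pair B (replicates 5 to 8) set a male KO animal of age 27 against a male WT animal of age 41.3. Pair C (replicates 9 and 10) set a male KO animal of age 27 against a female WT animal of age 47.6, and pair D (replicates 11 and 12) had a male KO animal of age 29.1 and a male WT animal of age 37.3. In pair C the KO RNA was in Cy5 on both arrays and in pair D in Cy3 on both. Coefficients of pairs C and D given below therefore rest on the dye shift estimated from pairs A and B, whereas ratios of single arrays and their means carry no dye adjustment. The KO animal was the older one in pair A and the younger one in pairs B, C and D, so in pairs B to D genotype and age cannot be told apart. The labels give no unit of age. They number the arrays as biological replicates but leave unsaid whether the tumours behind the arrays of 1 pair were taken from different animals and whether pairs B and C used the same KO animal, so p-values measure the spread between these 12 arrays.

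Polycomb proteins keep developmental genes silent through 2 kinds of complex. Polycomb repressive complex 2 (PRC2) is built on Suz12 and Eed and carries Ezh2 or its relative Ezh1 as the enzyme that methylates lysine 27 of histone H3. In PRC1, Ring1 or Rnf2 (also known as Ring1b) attaches ubiquitin to histone H2A, Bmi1 is a partner that stimulates this activity, and Cbx proteins read the histone mark left by PRC2. Ezh2 is typically abundant in dividing cells and Ezh1 in resting ones, and CG-rich promoters are where these complexes mostly bind.

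The promoters of the Polycomb genes are themselves rich in CG, the pair of letters that DNA methyltransferases act on. The RefSeq promoter table used (GRCm38.p6, 250 bases before to 50 after a transcript start) matched 9 of the 10 genes, all but Cbx2. These windows held between 17 CG (Eed) and 41 CG (Suz12), and all 9 lay above the median of 7 CG over 32851 mouse promoters. The upper quartile of all those promoters was 20 CG, which every window but that of Eed exceeded. Those of Suz12, the gene with the only called probe, Cbx7, the gene with the largest fitted difference, and Ezh2, the main catalytic subunit, are shown 5′ to 3′ on the gene's strand with CG in capitals.
Suz12, chr11:79992856-79993155, plus strand: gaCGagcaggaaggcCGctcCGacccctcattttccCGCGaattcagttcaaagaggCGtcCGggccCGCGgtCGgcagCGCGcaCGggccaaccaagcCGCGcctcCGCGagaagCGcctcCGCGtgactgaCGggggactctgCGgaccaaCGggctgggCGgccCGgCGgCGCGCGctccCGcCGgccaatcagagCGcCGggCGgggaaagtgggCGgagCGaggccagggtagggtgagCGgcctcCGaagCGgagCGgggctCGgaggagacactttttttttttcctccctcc
Cbx7, chr15:79932597-79932896, minus strand: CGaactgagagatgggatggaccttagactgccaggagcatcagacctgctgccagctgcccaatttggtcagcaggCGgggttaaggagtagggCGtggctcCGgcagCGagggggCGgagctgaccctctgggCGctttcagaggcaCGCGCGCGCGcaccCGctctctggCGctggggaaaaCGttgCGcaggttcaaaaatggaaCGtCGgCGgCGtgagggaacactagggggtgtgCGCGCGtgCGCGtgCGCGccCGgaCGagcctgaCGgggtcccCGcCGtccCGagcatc
Ezh2, chr6:47594981-47595280, minus strand: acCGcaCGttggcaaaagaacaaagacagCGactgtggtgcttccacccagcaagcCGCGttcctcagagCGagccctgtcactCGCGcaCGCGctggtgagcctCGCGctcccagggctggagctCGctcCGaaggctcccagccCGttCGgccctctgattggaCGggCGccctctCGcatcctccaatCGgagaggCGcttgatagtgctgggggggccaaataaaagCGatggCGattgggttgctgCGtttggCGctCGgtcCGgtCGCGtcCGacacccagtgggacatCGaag
The Suz12 window holds 41 CG, the Cbx7 window 33 and the Ezh2 window 31. Letters of the kind bound by E2F factors, which switch on genes of DNA replication, were searched as TTTGGCGC, TTTCCCGC, TTTGCCGC and TTTCGCGC on both strands, where the letters of one motif may overlap those of another. They occurred in the Ezh2 and Suz12 windows, 2 of 9, against 2.26% of all promoters. Each of these motifs contains CG, and the 9 windows held 17 to 41 CG against a median of 7. The 2.26% is therefore not a background of like CG content, and the part of CG content was not tested. A match is a description of letters and not of a bound site, and DNA methylation was not measured on these arrays.

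Dnmt3a itself was lower in the KO RNA on all 3 of its probes. For A_52_P169048 the KO over WT log2 ratio ran from -1.05 to -0.44 on replicates 1 to 8, and it was also below 0 on replicates 9 to 12, where the KO signal was not well above background. The fitted value was -0.55 (SE 0.075, limma adjusted p = 0.0026). Of the other probes, A_52_P30497 had a fitted log2 ratio of -0.25 (SE 0.049, adjusted p = 0.0158) and A_52_P76146 one of -0.21 (SE 0.045, adjusted p = 0.0217). These calls were kept in 29 of 33, 24 of 34 and 20 of 35 alternative settings and the direction in all of them. Over its settings the log2 ratio of A_52_P169048 ran from -1.30 to -0.36, so its size depended on the processing and the arrays used. A_52_P76146 lost its call when deposited local backgrounds were left unreplaced (adjusted p = 0.0905) and when processed signals were used (0.0615). Which exons Cre removed is not stated, so whether a probe lies in the deleted part is unknown. On slide 3, which carried pairs C and D, 59.1% to 72.2% of probes were well above background against 81.7% to 89.6% on slides 1 and 2, and each slide had its own scan time. All 7 alveolar type 2 markers were well above background in both RNAs on all 12 arrays. Among markers of other cells, those of endothelial cells differed between KO and WT RNA. Of 10 endothelial genes 8 were called lower in KO and none higher, with a list median of -0.72 on the log2 scale that was below 0 on 12 of 12 arrays. The median signal of those 10 genes ran from 9.64 to 10.48 in KO RNA and from 10.61 to 11.36 in WT RNA, without overlap, and its part in the Polycomb values was not tested. Of 8 stromal genes 1 was called lower (Pdgfrb), with a list median of -0.33 that was below 0 on 9 arrays. Of 2 red cell genes 1 was called lower (Hba-a1), with a list median of -1.25. That median was below 0 on 9 arrays and was -2.32 in pair A and 0.14 in pair B. Among the alveolar type 2 markers 1 was called lower (Lamp3, -0.78, adjusted p = 0.0430). No call was made among 8 macrophage, 7 T cell, 6 B and plasma cell and 4 alveolar type 1 genes. The B and plasma cell list had a median of -0.037. Its gene Jchain was at -2.07 (limma adjusted p = 0.0554), lower on 10 of 12 arrays, and at -2.10 (0.0609) on its other probe. None of 3 club cell and 3 measured ciliated cell genes was called either, but their medians varied widely between arrays. On replicate 11 the club cell median was -5.82 and the ciliated cell median -3.66. On replicate 12, also of pair D, they were 1.85 and 1.79. The part of this in the Polycomb values was not tested. On the brightest probe of each gene, 3.49% of 20597 genes were called lower. In bulk tumour RNA fewer cells of a type and less RNA per cell cannot be told apart.

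Of the 16 Polycomb probes 1 was called higher in KO at an adjusted p under 0.05, none was called lower and 15 were not called. That is 6.25% of them, while 5.72% of all 35563 probes tested were called (2.83% higher and 2.88% lower), so the share called among Polycomb probes was close to that of the whole array. At an unadjusted p under 0.05 there were 3 Polycomb probes, against 21.0% of all probes. The median fitted log2 ratio of the 16 was 0.057 against -0.0026 for all probes, with 9 fitted values above 0 and 7 below. The 95% intervals of 16 of 16 probes lay within 1 log2 unit of 0 in either direction, and those of 15 lay within 0.5. The only wider one was that of Cbx7. The array signals of these genes in KO and WT tumours therefore differed by less than 2-fold in the fit at every probe, as an average over the 12 arrays.

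**Figure D1:**
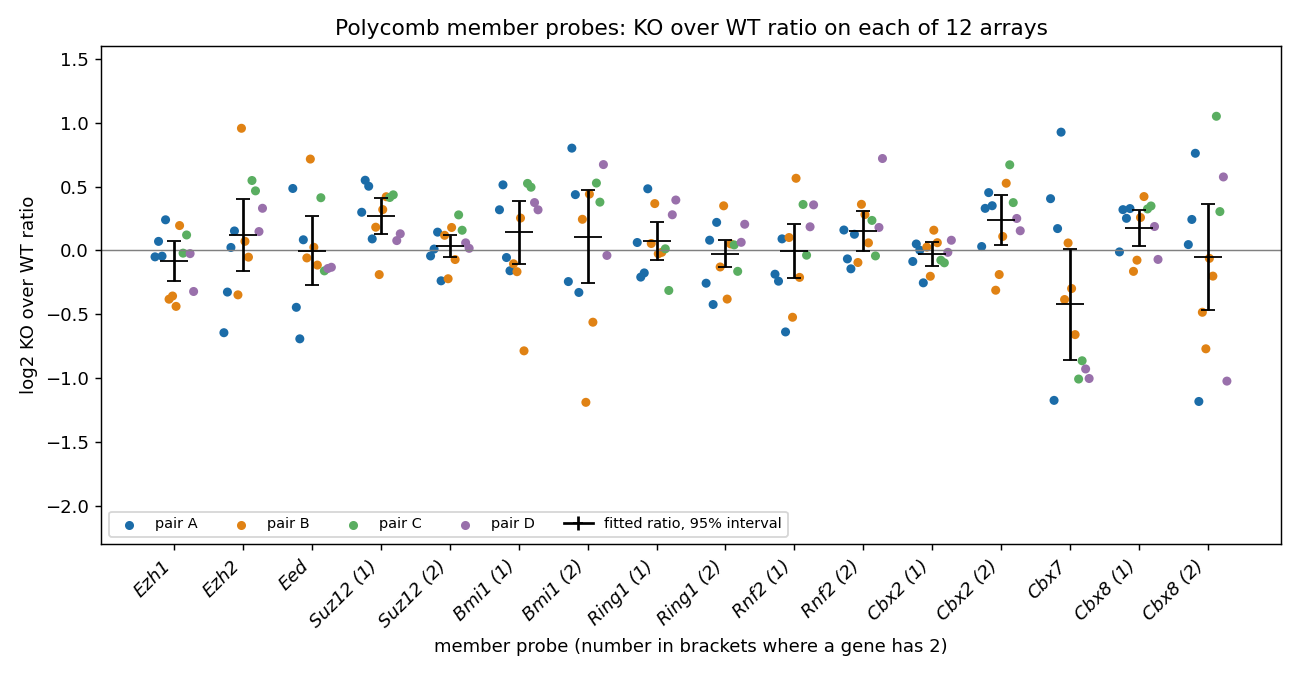
Log2 KO over WT ratio (vertical axis) of each of the 16 Polycomb probes (horizontal axis) on 12 arrays, with 1 point per array coloured by pair. Black bars are the fitted ratio and its 95% interval. The first Suz12 probe lies above 0 on 11 of 12 arrays, and the widest interval, -0.86 to 0.013, is that of Cbx7.

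Among the PRC2 genes, Suz12, the subunit that holds the complex together, gave the call. Its probe A_51_P214796 (build mm7, chr11:80115324-80115383, plus strand) had a normalized log2 signal in KO RNA from 10.15 to 10.84 with a median of 10.44, and in WT RNA from 9.85 to 10.40 with a median of 10.22. The ranges overlapped, but on single arrays the KO signal exceeded the WT signal on 11 of 12. The log2 ratio was 0.30, 0.55, 0.50 and 0.090 on replicates 1 to 4 of pair A and 0.18, -0.19, 0.32 and 0.42 on replicates 5 to 8 of pair B. It was 0.41 and 0.43 on the arrays of pair C and 0.077 and 0.13 on those of pair D. Only replicate 6 was below 0, and the ratios of pair D were the smallest of the positive ones together with that of replicate 4. The fitted log2 ratio was 0.27 (SE 0.064, 95% interval 0.13 to 0.41, adjusted p = 0.0328), a 1.20-fold higher signal in KO. The coefficient was positive in each pair, at 0.36, 0.18, 0.37 and 0.16 for A to D. Within single slides the log2 ratio was 0.36, 0.18 and 0.26 with adjusted p of 0.290, 0.615 and 0.181.

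The second Suz12 probe did not show this difference. A_52_P302203 (mm7, chr11:80095051-80095110, plus strand) lies upstream of the first and had a log2 ratio from -0.24 to 0.28 with a median of 0.038. Its fitted value was 0.037 (SE 0.040, 95% interval -0.050 to 0.12, adjusted p = 0.666). The first probe's ratio exceeded the second's on 12 of 12 arrays, by 0.24 ± 0.18 (SD, n = 12) on the log2 scale. In an exact two-sided sign-flip test over the 12 arrays this difference had p = 0.0005 and 0.0029 after adjustment over the 6 genes with 2 probes, in a comparison added after the ratios had been seen. The arrays of a pair were treated as independent in that test and in every other sign-flip test given below. The second probe's signal was between 7.38 and 7.95 in KO RNA, and the part of its dimness in the smaller ratio was not tested. The call was also close to its threshold. Of 35 alternative settings the Suz12 ratio kept its call in 16 and lost it in 19, with a log2 ratio between 0.18 and 0.36 in all of them. Leaving out any 1 of replicates 1, 2, 3, 7, 8, 9, 10 and 12 raised the adjusted p to between 0.0504 and 0.0684. Without pair A it was 0.164, without pair C 0.109 and without pair D 0.0659, while without pair B it was 0.044. The 2 genes whose ratios were most like those of the called Suz12 probe, out of 17117 searched, were Rps6kb1 (Pearson r = 0.96) and Efnb1 (r = 0.94), as a description over 12 arrays that share slides and dyes.

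**Figure D2:**
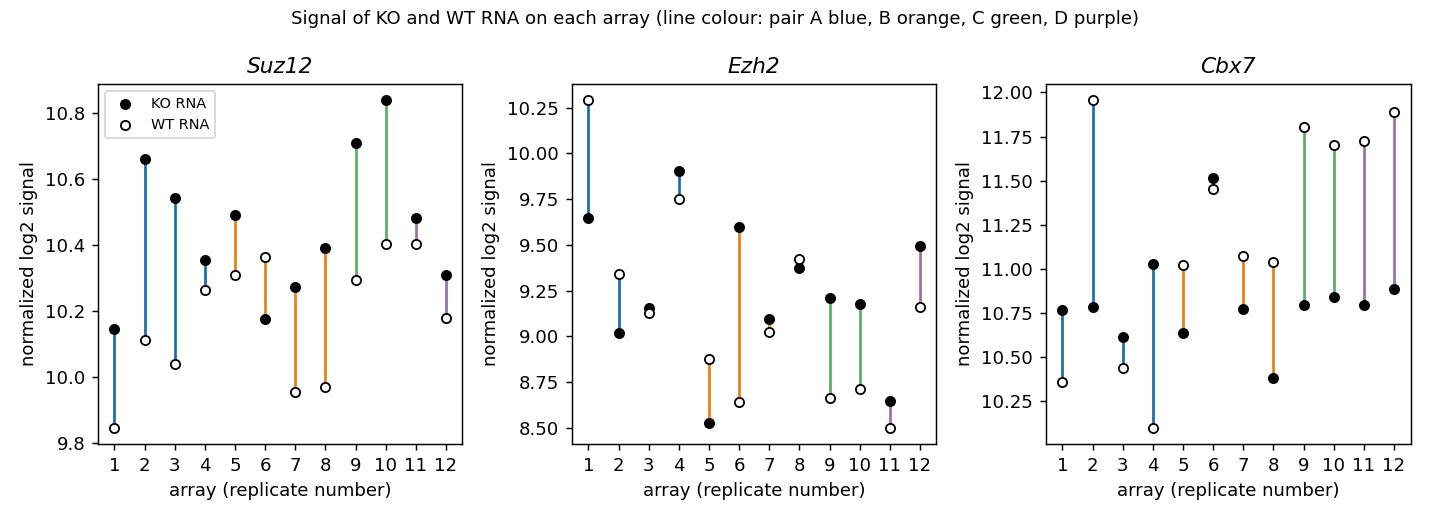
Normalized log2 signal (vertical axes) of KO RNA (filled) and WT RNA (open) on each of 12 arrays (horizontal axes) for the called Suz12 probe, Ezh2 and Cbx7, joined by lines coloured by pair. The KO point of Suz12 is the higher on 11 arrays, Ezh2 has no common direction, and Cbx7 is about 1 log2 unit lower in KO on the 4 arrays of pairs C and D.

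Ezh2, the PRC2 methyltransferase of dividing cells, had a log2 signal in KO RNA from 8.53 to 9.91 with a median of 9.19, and in WT RNA from 8.50 to 10.29 with a median of 9.08. Its log2 ratio ran from -0.64 on replicate 1 to 0.96 on replicate 6, so KO and WT overlapped widely. The probe (A_51_P248067, mm7, chr6:47568744-47569639, minus strand) was higher in KO on 8 of 12 arrays with a fitted log2 ratio of 0.12 (SE 0.130, 95% interval -0.16 to 0.41, adjusted p = 0.658). The pair coefficients were -0.20, 0.16, 0.71 and 0.035, and a test over the 4 pairs did not call them different (F test, adjusted p = 0.501). The direction was reversed, at -0.011, without pair C.

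Ezh1, the enzyme more typical of resting cells (mm7, chr11:101300862-101300921, minus strand), had a log2 ratio from -0.44 to 0.24 with a median of -0.035, and was lower in KO on 8 of 12 arrays. Its fitted value was -0.084 (SE 0.071, 95% interval -0.24 to 0.071, adjusted p = 0.566), with 3 of the 4 arrays of pair B at -0.36 or below. Those arrays were at -0.38, -0.36 and -0.44, and the other array of pair B was at 0.19. The Ezh2 ratio exceeded the Ezh1 ratio on 8 of 12 arrays, by 0.19 ± 0.52 (SD, n = 12), which was less than the spread over arrays (exact sign-flip p = 0.229, 0.445 adjusted over 4 pairs of related genes). These pairs of genes were chosen after their values had been seen. Eed, which reads the mark made by PRC2 and stimulates the enzyme (mm7, chr7:85913246-85916155, minus strand), had a log2 ratio from -0.69 to 0.71 and a fitted value of -0.0023 (SE 0.123, 95% interval -0.27 to 0.27, adjusted p = 0.995). It was higher on 5 arrays and lower on 7.

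In PRC1, neither ubiquitin ligase was called. Ring1 had fitted log2 ratios of 0.077 (SE 0.068, adjusted p = 0.588) and -0.026 (SE 0.048, adjusted p = 0.824) on its probes A_51_P455266 and A_52_P41728, whose arrays ran from -0.31 to 0.48 and from -0.42 to 0.35. Rnf2 had -0.0043 (SE 0.098, adjusted p = 0.987) on A_51_P382253 and 0.15 (SE 0.072, adjusted p = 0.248) on A_52_P149743. The 2 Rnf2 probes had the same sign on 6 of 12 arrays, and the first of them had the smallest p of the 16 in the test between pairs (unadjusted p = 0.0347, adjusted p = 0.357). Without the dye term no Polycomb probe had an unadjusted p under 0.05 in that test. The mean ratio of this probe over the arrays of a pair was -0.24, -0.017, 0.16 and 0.27 for A to D, with a coefficient of -0.11 for pair C and 0.54 for pair D. The Rnf2 ratio minus the Ring1 ratio on the brighter probe of each was -0.091 ± 0.49 (SD, n = 12; exact sign-flip adjusted p = 0.546).

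Bmi1, the ligases' partner and a repressor of the Cdkn2a locus (probes at mm7, chr2:18748838-18748897 and chr2:18751519-18751578, plus strand), was higher in KO on 7 of 12 arrays on both probes. For A_51_P121547 the log2 ratio ran from -0.79 to 0.52 with a median of 0.29, and the fitted value was 0.14 (SE 0.113, adjusted p = 0.540). For A_52_P39157 it ran from -1.19 to 0.80 with a median of 0.31, and the fitted value was 0.11 (SE 0.167, adjusted p = 0.779). Pair B was the only pair whose arrays averaged below 0 on both probes, at -0.20 and -0.27. The arrays of pair C averaged 0.51 and 0.45 and those of pair D 0.35 and 0.32. The probes had the same sign on 8 of 12 arrays and their difference was smaller than its spread (0.032 ± 0.44, SD, n = 12; exact sign-flip adjusted p = 0.810).

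Among the Cbx genes, readers of the histone mark, the ratios of Cbx7 (SD 0.66 over 12 arrays) and of 1 Cbx8 probe (SD 0.70) were the most spread of the 16 probes, and those of the dim Cbx2 probe the least (SD 0.12). Cbx7 is the Cbx protein known for holding back Cdkn2a and is abundant in resting tissue. Its probe (A_52_P263774, mm7, chr15:79999970-80000029, minus strand) had a log2 signal in KO RNA from 10.38 to 11.51 with a median of 10.79, and in WT RNA from 10.10 to 11.96 with a median of 11.26. The ratio was 0.40, -1.17, 0.17 and 0.93 on the arrays of pair A, -0.38, 0.058, -0.30 and -0.66 on those of pair B, -1.01 and -0.86 in pair C, and -0.93 and -1.0 in pair D. Thus 8 of 12 arrays were lower in KO, the 4 arrays of slide 3 lay close together, and pair A held both the lowest and the highest ratio of all. On that pair the WT signal moved most, from 10.10 on replicate 4 to 11.96 on replicate 2, while the KO signal stayed between 10.61 and 11.03. The fitted log2 ratio was -0.42 (SE 0.199, 95% interval -0.86 to 0.013, adjusted p = 0.253), a 1.34-fold lower signal in KO that was not called. The pair coefficients were 0.082, -0.32, -1.03 and -0.87, and the test between pairs did not call them different (adjusted p = 0.528). Within slide 3 alone the log2 ratio was -0.95 (limma adjusted p = 0.0892). That slide also had the fewest probes above background, but the Cbx7 probe was well above background in both RNAs on all 12 arrays. The part of the slide in the Cbx7 ratio was not tested.

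Cbx2 and Cbx8 lie near each other on chromosome 11 and each had 1 probe with a positive fit that was not called and 1 near 0. The Cbx2 probe A_52_P13730 (mm7, chr11:119140094-119140153, plus strand) ran from -0.31 to 0.67 with a median of 0.29 and was higher in KO on 10 of 12 arrays, with a fitted log2 ratio of 0.23 (SE 0.089, unadjusted p = 0.0221, adjusted p = 0.152). The dim Cbx2 probe A_51_P300245 had -0.030 (SE 0.042, adjusted p = 0.757). It was not well above background in KO RNA on replicates 9 to 12 and in WT RNA on replicates 10 to 12, so no difference between the 2 probes was drawn from it. For Cbx8, A_52_P229997 had a fitted log2 ratio of 0.18 (SE 0.065, adjusted p = 0.141) and was higher on 8 of 12 arrays. The Cbx8 probe A_52_P89273, matched by its name in the array file only, had -0.049 (SE 0.190, adjusted p = 0.921) and ran from -1.18 to 1.05, with 1 high and 1 low array in both pairs A and D. Set against Cbx2 on the brighter probe of each, the Cbx7 ratio was lower on 9 of 12 arrays by 0.63 log2 units on average, with an SD of 0.79. The exact sign-flip p for this was 0.0225, and 0.0898 after adjustment over the 4 pairs of related genes. The Cbx7 ratio minus that of the brighter Cbx8 probe, A_52_P89273, was -0.33 ± 1.14 (SD, n = 12; adjusted p = 0.445, exact sign-flip test). The Cbx8 probe A_52_P229997 was not compared with Cbx7.

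None of the 16 probes was called different between pairs, which is close to the share of 0.368% called among 35350 probes. That background of 130 probes moved to 520 without replicate 12, to 29 without replicate 3 and to 14 with local backgrounds as deposited, with no Polycomb probe called in any of these. Adjusted p-values of the Polycomb probes ran from 0.357 to 0.883, and 1 probe had an unadjusted p under 0.05. The lowest adjusted p of a Polycomb probe in this F test was 0.0728 with median centring and 0.103 without replicate 2.

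The remaining subunits and the genes that counteract Polycomb were counted on the brightest probe of each gene. There 6.53% of 20597 genes were called, 3.03% higher and 3.49% lower. Of 8 other PRC2 genes, 2 were called higher, none lower, and the list median was 0.066 against -0.0056 for all genes. Rbbp7, a histone-binding subunit that PRC2 shares with other chromatin complexes, had a log2 ratio of 0.49 (SE 0.073, adjusted p = 0.0039) and was higher on 12 of 12 arrays. Its pair coefficients lay between 0.41 and 0.53. Mtf2, which helps to bring PRC2 to CG-rich DNA, had 0.32 (SE 0.058, adjusted p = 0.0099), also on 12 of 12 arrays, and its 3 other probes were called higher as well at 0.30 to 0.33. Phf1, a relative of Mtf2, had -0.24 (SE 0.123, adjusted p = 0.287) and Jarid2, a DNA-binding cofactor, 0.17 (SE 0.115, adjusted p = 0.467). The Rbbp7 call was kept in 31 of 35 alternative settings and the Mtf2 call in 28.

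**Figure D3:**
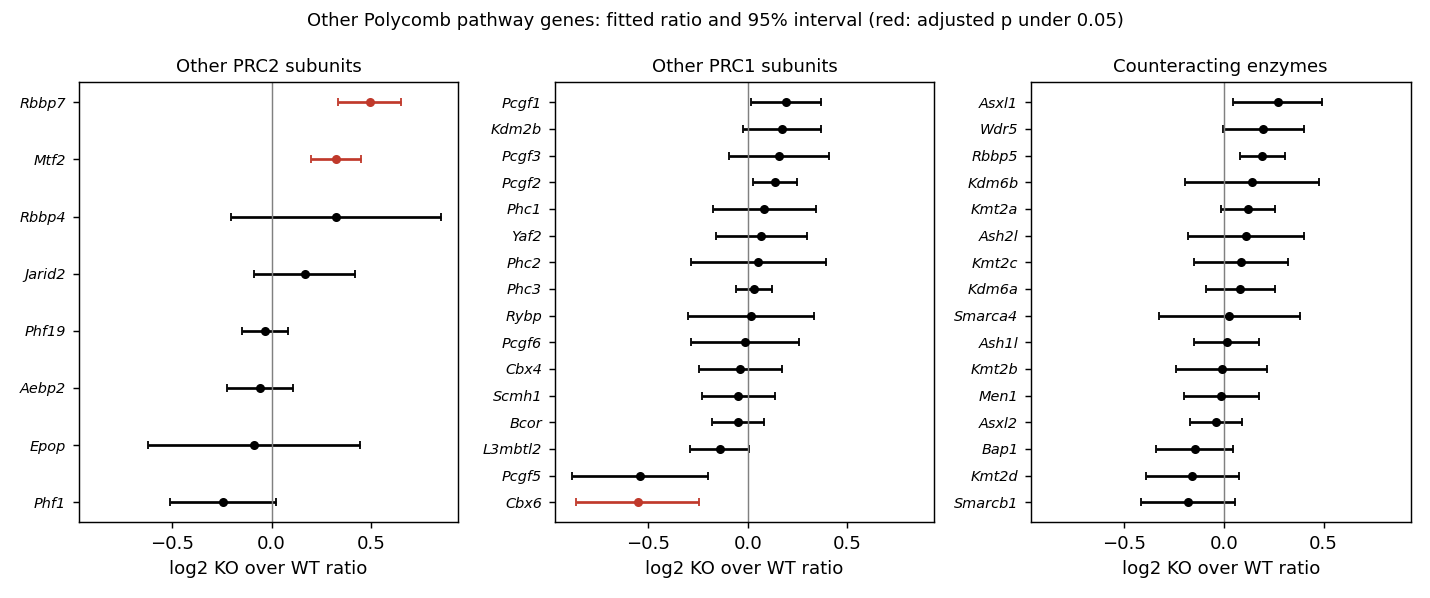
Fitted log2 KO over WT ratio and 95% interval (horizontal axes) of the other PRC2 genes, the other PRC1 genes and the counteracting genes (enzymes and partner subunits). The brightest probe of each is shown, with an adjusted p under 0.05 in red. Rbbp7 and Mtf2 lie above 0, Cbx6 lies below 0, and no counteracting gene is in red.

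Of 16 other PRC1 genes 1 was called lower, none higher, with a list median of 0.025. A dimmer probe of Bcor, a subunit of a variant PRC1, was called higher at 0.22 (adjusted p = 0.0391, 12 of 12 arrays), while the brightest Bcor probe was at -0.048 (adjusted p = 0.717). The gene called lower was Cbx6, another Cbx reader, with a log2 ratio of -0.55 (SE 0.141, adjusted p = 0.0427) and lower on 10 of 12 arrays. Its 2 other probes were also called lower, at -0.47 and -0.45. The call on the brightest probe was kept in 13 of 35 alternative settings and lost in 22. Pcgf5, a relative of Bmi1 found in other forms of PRC1, had a log2 ratio of -0.54 (SE 0.156, adjusted p = 0.0656). Pcgf2, the closest relative of Bmi1, had 0.14 (SE 0.049, adjusted p = 0.131) and Pcgf1 0.19 (SE 0.080, adjusted p = 0.194). No call was made among 16 genes that counteract Polycomb. Some are enzymes, such as the histone H3 lysine 4 methyltransferases, the lysine 27 demethylases and the deubiquitinase Bap1. Others, such as Rbbp5, Wdr5 and Asxl1, are partner subunits of such enzymes. limma gave 2 of the 16 counteracting genes an unadjusted p under 0.05, against 4695 of all 20597 genes, so these 2 do not set the list apart. The 2 were Rbbp5 with 0.19 (SE 0.052, adjusted p = 0.0505) and Asxl1 with 0.27 (SE 0.102, adjusted p = 0.148). Rbbp5 gained a call in 10 of 35 alternative settings, and its other probe was at 0.21 (adjusted p = 0.0547). The other Asxl1 probes were at -0.0087 and 0.035, neither called. Wdr5 had 0.20 (SE 0.094, adjusted p = 0.252) and Kmt2a 0.12 (SE 0.062, adjusted p = 0.293).

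Of 20 genes that textbooks name as silenced by Polycomb 18 were measured. Over the arrays the median signal of the list ran from 7.64 to 8.30 in KO RNA and from 7.98 to 8.52 in WT RNA. Of the 18 genes 13 were well above background in both RNAs on all 12 arrays. The median log2 ratio of the list was -0.050. None of the 18 was called higher and 1 was called lower, which is 5.56% called against 6.53% of all genes. That gene was Sox17, a transcription factor of endoderm that endothelial cells also express, at -0.98 (SE 0.141, adjusted p = 0.0034) and lower on 12 of 12 arrays. Its probe A_51_P273667 was at -0.52 (adjusted p = 0.0023) and its probe A_52_P365096 at -0.020 (adjusted p = 0.769). The endothelial list median was below 0 on the same 12 arrays, and the part of those cells in the Sox17 value was not tested. Tbx5 had -0.36 (SE 0.121, adjusted p = 0.109), Gata6 0.21 (SE 0.092, adjusted p = 0.214) and Lhx1 -0.067 (SE 0.028, adjusted p = 0.192). The other Tbx5 probe was at -0.039 and the other Gata6 probes were at 0.099 and -0.054, none of them called. The Cdkn2a locus, the target tied to Bmi1 and Cbx7, had -0.43 (SE 0.281, adjusted p = 0.436) with pair coefficients of 0.086, -0.87, -0.88 and -0.095.

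Because Ezh2 follows cell division in many tissues, its ratio was set beside 25 genes of the cell cycle. Of these 1 was called higher and none lower, with a list median of 0.24. Tyms, the enzyme that makes thymidylate for DNA synthesis, had a log2 ratio of 0.49 (SE 0.047, adjusted p = 0.0005), higher on 12 of 12 arrays. A further Tyms probe was at 0.51 (adjusted p = 0.0005) and another at 0.023 (adjusted p = 0.775). Ccnb2, Aurkb and Bub1, which act in mitosis, had 0.60, 0.54 and 0.51 with adjusted p of 0.0577, 0.0592 and 0.0710. The list median per array ran from -0.41 on replicate 2 to 1.38 on replicate 6, which was also the array of the highest Ezh2 ratio. On replicate 1, the array of the lowest Ezh2 ratio (-0.64), the list median was 0.082. On replicate 5 Ezh2 was at -0.35 and the list median at 0.24. The signs also differed on replicates 3 and 8 and were the same on the other arrays. By pair the medians were -0.038, 0.48, 0.60 and 0.14, beside Ezh2 coefficients of -0.20, 0.16, 0.71 and 0.035, and pair A was lowest in both. These values come from the same arrays, and what they share was not tested.

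**Figure D4:**
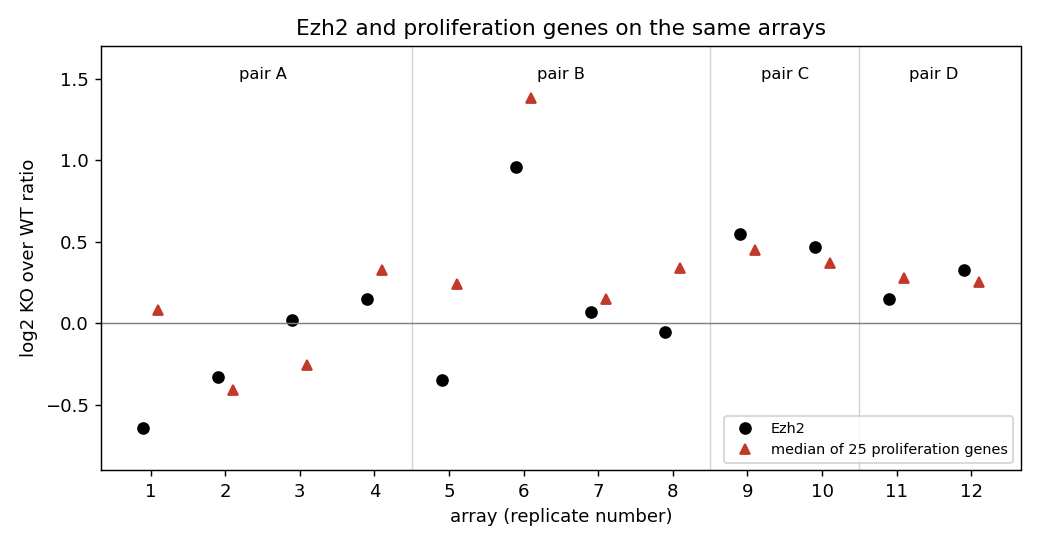
Log2 KO over WT ratio (vertical axis) of Ezh2 (black circles) and the median of 25 proliferation genes (red triangles) on each of 12 arrays (horizontal axis). Both are highest on replicate 6, at 0.96 and 1.38. The lowest values lie on different arrays of pair A, -0.64 for Ezh2 on replicate 1 and -0.41 for the median on replicate 2.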

How the data were processed

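Each of 12 two-colour arrays was 1 KO over WT ratio. Spot intensities, local backgrounds and flags (0 or 1) for spots well above background, saturated or outlying were extracted with Feature Extraction 10.1.1.1 (array design 014868; per the file headers). As deposited, mean intensities carry no normalization, whereas Agilent's processed intensities are background-subtracted and dye-normalized. For each probe the authors' series matrix gives a log2 ratio, for which the submitters' processing notes name limma. It correlated with the ratios computed here at r = 0.992 to 0.999, and how it was centred is unknown. The number of arrays limits precision.

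With R 4.3.3, limma 3.58.1 and statmod 1.5.0, intensities were corrected by normexp (offset 50) and loess-normalized within arrays. Local backgrounds flagged as outlying were replaced by the array's median for that dye. Swapped arrays were turned to KO over WT, and spots of a probe averaged. Signals of single RNAs were scaled by Aquantile. Probes well above background for KO or WT on at least 6 of 12 arrays were kept (35563). The fit had a dye term and the pair as random block (duplicateCorrelation on the turned ratios, 0.0794, estimated from only 4 pairs), with Benjamini-Hochberg adjustment over all kept probes. A fit with 1 coefficient per pair gave the F test between pairs. The code was tested on simulated data. Coordinates of probes are those of the files (mm7), and exon or UTR annotation of that build was not used here. Of the 16 Polycomb probes 15 matched a reference gene by accession. All Polycomb genes and Dnmt3a are named, with up to 4 genes of smallest p per list, and for the called gene the 2 most alike genes. Cdkn2a and the further probes of listed genes were added after their values were seen. The Polycomb genes, lists and tests were chosen with earlier results of these data known.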

Additional observations from a re-analysis of the deposited data

How the results depend on the processing

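All alternatives were planned, 36 for the counts of calls and 35 of them for ratios of single probes, and 553 ratios of Polycomb probes were recomputed. Of these, 484 kept direction and side of the threshold, 19 lost the Suz12 call, 1 gained a call (Cbx2 A_52_P13730 without replicate 5, 0.28, adjusted p = 0.0493) and 49 changed sign, none of them with a call. The number of Polycomb probes called was 1 and ranged from 0 to 2 when single replicates were left out. It was 0 with median centring, 1 mean per pair, trended and robust variances, an adjusted p under 0.01, probes averaged per gene, without pair A, C or D, in pairs A and B alone and within each slide. For Suz12 A_51_P214796 those settings gave 0.35 (adjusted p = 0.0536) with median centring, 0.27 (0.203) with pair means and 0.27 (0.0749) with trended variances. Over all probes 2033 were called, with 486 under median centring, 3269 without the block, 2877 with the slide as block, 40 for pair means, 627 with trended variances, 448 at 0.01, 577, 1192, 1183 and 1268 without pairs A, B, C and D, 1256 in pairs A and B alone, 0, 1 and 0 within slides 1, 2 and 3, and 1053 to 2687 without single replicates. The share of calls that were higher was 49.6%, against 61.6% with local backgrounds as deposited. Each ratio pairs KO with WT RNA of 1 array. Between pairs no Polycomb probe was called in any setting run for that test, and the 130 probes called in all became 368 with median centring, 166 without the dye term, 68 with trended variances, 14 with local backgrounds as deposited and 29 to 520 without single replicates.

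Sign changes, all of ratios without a call, were as follows. Eed was 0.032 with local backgrounds as deposited, 0.00039 without background correction, 0.0074 on processed signals, 0.093 with median centring, 0.064 without pair A, 0.034 without pair D and 0.14 within slide 2. Rnf2 A_51_P382253 was 0.031 with local backgrounds as deposited, 0.0096 on processed signals, 0.10 with median centring, 0.043 for pair means, 0.11 without pair A, 0.22 within slide 3 and 0.036 with array weights. Cbx8 A_52_P89273 was 0.047 with median centring, 0.0099 for pair means, 0.099 without pair B and 0.23 within slide 3. Without single replicates Eed ran from -0.070 to 0.063, that Rnf2 probe from -0.058 to 0.037 and that Cbx8 probe from -0.16 to 0.036. Ring1 A_52_P41728 was 0.020 with median centring, 0.0063 without pair A and 0.037 within slide 3. Ezh2 was -0.011 without pair C, -0.021 in pairs A and B and -0.20 within slide 1. Bmi1 A_52_P39157 was -0.0074 without pair D, -0.050 in pairs A and B and -0.27 within slide 2. Bmi1 A_51_P121547 was -0.023 in pairs A and B and -0.20 within slide 2. Suz12 A_52_P302203 was -0.015 in pairs A and B and -0.032 within slide 1. Cbx2 A_51_P300245 was 0.010 within slide 2 and 0.0015 with array weights. Within slide 1 Ezh1 was 0.054 and Cbx7 0.082. The causes were not tested. Settings with fewer arrays or pairs leave fewer residual degrees of freedom, and 12 arrays of 4 pairs limit every interval.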
